A study of Mus musculus with 40 samples.

Results

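The genes described here are 10 cytotoxic and natural killer (NK) effector genes, Gzma, Gzmb, Prf1, Nkg7, Fasl, Klrk1, Ncr1, Ifng, Eomes and Tbx21. They were chosen by symbol and not by a rule on their values, but with earlier results of these data known. All 10 were among the 14318 genes listed for 39 primary tumors. The tumors had grown in wild type BALB/c mothers that were mated at 8 weeks of age and inoculated through the mammary ducts while lactating, with luciferase-expressing 4T1 cells (4T1-luc) or 66cl4 cells (66cl4-luc), which are mouse lines that model triple-negative breast cancer. In each model, mice were untreated or received i.p., from 3 w p.i. onward, chitin (1 mg every 3 d), the anti-PD-1 antibody RMP1-14 (200 µg weekly), or both, and tumors were taken at 5 w p.i. Each of the 8 groups had 5 tumors, apart from untreated 4T1 with 4, numbered 1, 2, 4 and 5. All groups shared the lactating host. Each model rests on a single cell line, and more cells were inoculated for 66cl4-luc than for 4T1-luc. Model, cell line and inoculum therefore cannot be told apart. The tumors were sequenced whole, so that fewer cells of a type and less RNA per cell cannot be told apart either.

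Cytotoxic lymphocytes, that is CD8+ T cells and NK cells, kill target cells in contact. Their granules hold perforin (Prf1), which opens the target membrane, and serine proteases called granzymes (Gzma, Gzmb and others), which then enter and start cell death, while Nkg7 is a granule membrane protein needed for full degranulation. Fas ligand (Fasl) kills through the Fas receptor instead. Klrk1 encodes NKG2D, a receptor for stress ligands on tumor cells that is carried by NK cells and CD8+ T cells, Ncr1 encodes NKp46, a receptor typical of NK cells and related innate lymphoid cells, Ifng encodes interferon-γ, and Eomes and Tbx21 (T-bet) are the T-box transcription factors of this program. In RefSeq (GRCm38.p6), the genes that the results below turn on lie at chr10:61297751-61304684 (Prf1, plus strand), chr14:56258836-56262334 (Gzmb, minus strand), chr7:43437138-43438246 (Nkg7, plus strand), chr6:129610323-129623903 (Klrk1, minus strand) and chr7:4337715-4345184 (Ncr1, plus strand).

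Depth was 5105898 to 14800352 reads on listed genes per tumor, with a median of 6590274, and the 4T1 chitin group (median 8759930, against 6164483 to 6504793 in the other 4T1 groups) and both chitin-containing 66cl4 groups were the deeper ones (66cl4 medians of 10250227 for chitin and 8985408 when combined with anti-PD-1, where untreated tumors had 6064018 and anti-PD-1 alone 6166518). Levels are given as normalized counts, which are reads divided by the tumor's size factor. Differences are in values of the variance stabilizing transformation (VST), a log2-like scale on which differences of weakly expressed genes are compressed, and are given ± SE. The epithelial marker Epcam was at a mean of 18.8 to 56.8 normalized counts in the 66cl4 groups and 4803 to 8292 in the 4T1 groups, while Krt8 was at 3968 to 4752 and 7938 to 9559.

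Per kilobase of exon, the level order of the effector genes differed between the models. In 4T1 tumors (n = 19), Nkg7 had the highest mean, 127 ± 82.8 normalized counts per kb (SD), followed by Gzma at 94.9 ± 94.1, Gzmb at 92.1 ± 81.5, Prf1 at 41.8 ± 28.8, Eomes at 33.2 ± 8.77, Ifng at 18.7 ± 15.1 and Klrk1 at 12.5 ± 7.01. Ncr1, Fasl and Tbx21 came last, at 8.43, 8.03 and 7.57 per kb. The step between neighbors in this order was smaller than the larger of their SDs. In 66cl4 tumors (n = 20), Gzmb (97.4 ± 53.5 per kb) and Prf1 (93.1 ± 51.4) led, Nkg7 (34.8 ± 11.3), Gzma (26.7 ± 14.3), Eomes (25.5 ± 4.72) and Ncr1 (20.1 ± 6.06) followed, and Klrk1 (4.33), Fasl (3.82), Tbx21 (3.63) and Ifng (1.37) were lowest. The steps from Prf1 to Nkg7, from Ncr1 to Klrk1 and from Tbx21 to Ifng were larger than either SD, and those between the other neighbors were not. The annotated exons of Klrk1 sum to 7183 bases, against 914 to 4155 for the others. Fasl had more than 10 reads in 2 of 20 and Tbx21 in 8 of 20 tumors of 66cl4, and Ifng in none, so that these genes are close to what this depth can resolve there.

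**Figure D1:**
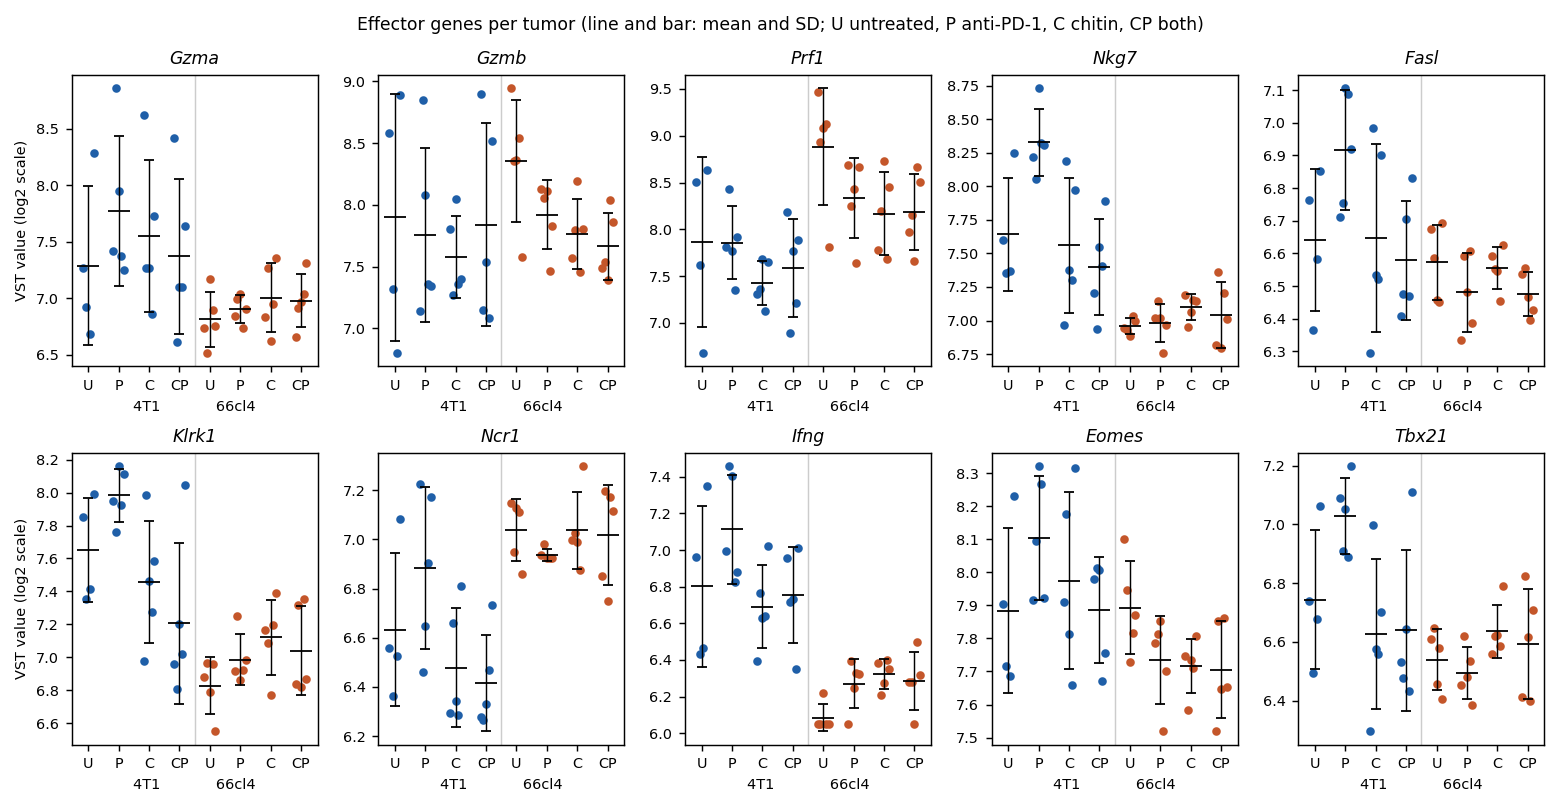
VST value (log2 scale) of each effector gene in every tumor, by model (4T1 blue, 66cl4 orange) and treatment (U untreated, P anti-PD-1, C chitin, CP both), with the group mean as a line and the SD as a bar. Prf1 is highest in untreated 66cl4 tumors except for tumor 5, Nkg7 and Klrk1 have their highest means in 4T1 tumors given anti-PD-1, and Ifng lies at or near the floor in 66cl4.

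The first question was how the effector program differed between the models, with the treatments weighted equally. Prf1 and Ncr1 were higher in 66cl4 tumors, by 0.71 ± 0.16 and 0.40 ± 0.07. The other members past the threshold were lower in 66cl4, with Nkg7 lower by a VST difference of -0.71 ± 0.09, Ifng by -0.60 ± 0.07, Klrk1 by -0.58 ± 0.09, Gzma by -0.57 ± 0.15, Eomes by -0.20 ± 0.06, Tbx21 by -0.19 ± 0.06 and Fasl by -0.17 ± 0.05. Gzmb differed by 0.16 ± 0.17 and did not pass. Adjusted p-values of the 9 called genes ranged from 2.58e-09 (Ifng) to 0.00371 (Fasl), by limma over all genes. This count of 9 in 10 stands beside 78.8% of all genes called in the same comparison, so that the count itself is near what any genes show. Under quantile normalization, Fasl and Tbx21 no longer passed (adjusted p = 0.524 and 0.425, limma).

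The same contrast in untreated tumors alone called 2 members as higher and 3 as lower in 66cl4, where 55.8% of all genes were called, 27.1% as higher and 28.7% as lower. Prf1 had 244, 86.0, 12.8 and 277 normalized counts in 4T1 tumors 1, 2, 4 and 5 and 581, 366, 416, 434 and 112 in 66cl4 tumors 1 to 5. All but the fifth 66cl4 tumor were above every 4T1 tumor, and the difference was 1.02 ± 0.33 (adjusted p = 0.0085, limma). It was 0.63 without 4T1 tumor 4 (adjusted p = 0.0954) and did not pass when only these groups entered the fit (adjusted p = 0.0582). Ncr1 had 8.28, 3.13, 7.29 and 35.4 normalized counts in 4T1 and 40.0, 26.4, 38.7, 37.4 and 21.4 in 66cl4, a difference of 0.40 ± 0.14 (adjusted p = 0.0149). Tumor 5 was the only 4T1 tumor within the range of 66cl4, and without 4T1 tumor 2 the adjusted p was 0.0774.

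In the opposite direction, Nkg7 had 83.9, 57.9, 59.2 and 186 normalized counts in untreated 4T1 tumors and 22.9 to 32.2 in untreated 66cl4 tumors (difference -0.68 ± 0.19, adjusted p = 0.00265). Klrk1 had 117, 57.9, 63.8 and 139 against 22.5, 27.5, 17.6, 27.0 and 8.01 (difference -0.82 ± 0.19, adjusted p = 0.000366). Ifng had 23, 3, 6 and 44 reads in 4T1 against a total of 1 read over the 5 tumors of 66cl4, which held 32471322 reads on all genes (difference -0.72 ± 0.15, adjusted p = 0.000125). These 3 members were the ones whose groups did not overlap, where 43.1% of all genes did not.

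**Figure D2:**
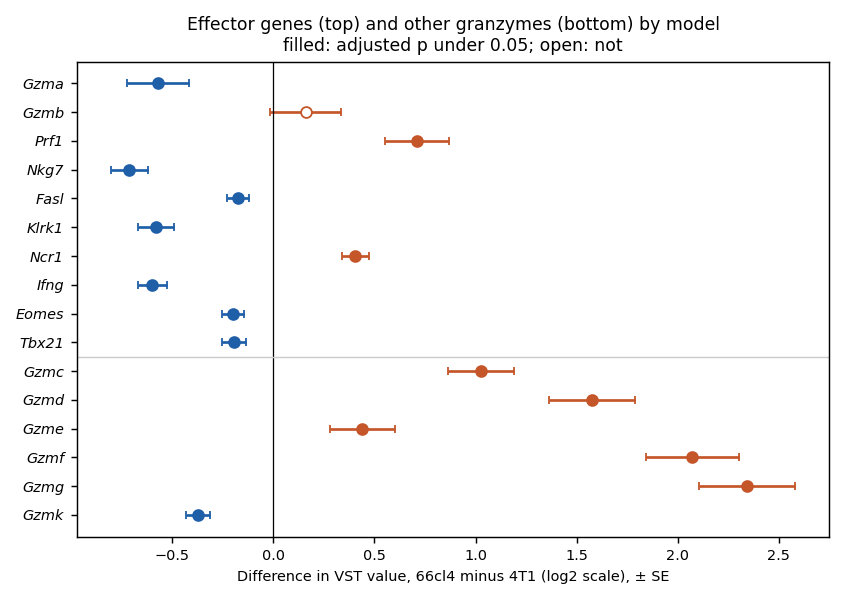
Difference in VST value between 66cl4 and 4T1 tumors, averaged over the 4 treatments (± SE), for the effector genes and for the other granzymes. Prf1, Ncr1 and Gzmc to Gzmg lie to the right (higher in 66cl4), the other called effector genes and Gzmk to the left, and Gzmb is the only open symbol (0.16 ± 0.17).

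The genes around the effectors were also different between the models. All 6 measured other granzymes were called, 5 of them higher in 66cl4: Gzmg by 2.34 ± 0.24, Gzmf by 2.07 ± 0.23, Gzmd by 1.58 ± 0.21 and Gzmc by 1.03 ± 0.16, with Gzme, named as the remaining gene of this cluster, by 0.44 ± 0.16. Together with Gzmb these lie within 145 kb on chromosome 14 (GRCm38, chr14:56117619-56262334). Gzmk, the granzyme typical of memory-like CD8+ T cells and also the only member of the list outside this cluster, was lower in 66cl4 (-0.37 ± 0.06). Of 9 T-cell markers, 8 were lower in 66cl4 and none higher, led by Cd8a (-1.46 ± 0.12), Cd8b1 (-1.004 ± 0.09), Cd3g (-0.84 ± 0.09) and Lck (-0.73 ± 0.09). Their summed level was 87.9 to 403 normalized counts in 66cl4 tumors and 267 to 2488 in 4T1 tumors, and no marker was at 0 throughout a group. The part of T-cell content in the lower Nkg7, Klrk1 and Ifng of 66cl4 tumors was not tested.

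Among 11 NK receptors and adaptors, 2 were higher and 6 lower in 66cl4. Itga2 (CD49b), also an integrin of epithelial cells, was lower by -2.33 ± 0.12 and the inhibitory receptor gene Klrc1 (NKG2A) by -0.47 ± 0.06, while Tyrobp, an adaptor that macrophages also express, and Klrg1 were higher by 0.51 ± 0.08 and 0.34 ± 0.07. All 6 measured ligands of NKG2D and DNAM-1 were called. The NKG2D ligands Ulbp1 (1.18 ± 0.10), H60b (0.88 ± 0.04), Raet1d (0.57 ± 0.05) and Raet1e (0.40 ± 0.04) were higher in 66cl4, that is in the model with the lower Klrk1, and the DNAM-1 ligands Pvr and Nectin2 were lower. In the interferon-γ pathway, all 6 genes were called. Of these, 4 were lower in 66cl4, among them Jak2 (-2.14 ± 0.08) and Irf1 (-1.35 ± 0.11), and the others were higher. Of 9 genes for granule loading and release, 5 were lower, among them Stxbp2 (-1.01 ± 0.05), Rab27a (-0.83 ± 0.05) and Unc13d (-0.65 ± 0.04), and 2 were higher. Of 10 genes of the death receptor pathway and granzyme inhibitors, 7 were lower, among them Tnfsf10 (-1.30 ± 0.14), and 2 were higher, one of them Fadd (0.46 ± 0.04). The cytokine and receptor list had 4 higher and 6 lower of 12, with Il12rb1 at -1.67 ± 0.16 and Il18rap at 1.00 ± 0.14, and the list of other effector transcription factors 2 higher and 5 lower of 8, with Bhlhe40 at -1.41 ± 0.10 and Zeb2 at 0.99 ± 0.08. These shares stand beside the 78.8% of all genes given above.

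Treatment was then compared within each model. None of the 10 members passed an adjusted p of 0.05 in any of the 12 comparisons of treatments, and neither did any other gene (0 of 14318, 0%, by limma, and 0 by limma-voom on the recovered reads), while the share of genes with an unadjusted p under 0.05 was 2.56% to 15.6%. Members are therefore described by their values, and by the number with an unadjusted p under 0.05 beside the same share of all genes.

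In 66cl4 tumors, Prf1 and Gzmb had their highest means without treatment. Gzmb had 370, 207, 209, 251 and 81.4 normalized counts in untreated tumors 1 to 5, 163, 151, 160, 68.8 and 115 under anti-PD-1, 80.3, 110, 176, 68.1 and 111 under chitin, and 71.4, 76.6, 61.3, 147 and 119 under the combination. Untreated tumors 1 to 4 were above all 15 treated tumors, and untreated tumor 5 lay among them. The differences from untreated tumors were -0.44 ± 0.20, -0.59 ± 0.20 and -0.69 ± 0.20, with adjusted p of 0.911, 0.260 and 0.298 (limma). Prf1 had 291, 187, 225, 88.8 and 284 under anti-PD-1, 106, 176, 303, 93.7 and 230 under chitin, and 135, 167, 90.9, 285 and 242 with both, so that again untreated tumors 1 to 4, at 366 to 581, were above all treated ones. Its mean was 382 ± 171 (SD) without treatment, 215 ± 82.8 under anti-PD-1, 182 ± 87.2 under chitin and 184 ± 79.0 under both. The differences with chitin (-0.72 ± 0.28) and chitin + anti-PD-1 (-0.69 ± 0.28) had adjusted p of 0.315 and 0.383. For both genes the tumors given chitin alone and together with anti-PD-1 were lower than untreated ones by a similar amount, and chitin + anti-PD-1 against chitin alone had no member with an unadjusted p under 0.05 (3.07% of all genes).

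The neighboring granzymes followed Prf1 and Gzmb in these tumors. Gzmc had means of 467 normalized counts untreated, 249 under anti-PD-1, 207 under chitin and 197 with both, and Gzme 310, 148, 122 and 128. With chitin, 5 of 6 other granzymes had an unadjusted p under 0.05, all lower, and so did 5 of 6 with chitin + anti-PD-1, where 11.4% and 10.6% of all genes did in either direction. Over the tumors of 66cl4, Gzmc to Gzmg had r of 0.90 to 0.996 with each other within treatment groups. The counts are therefore not of independent genes. None passed the threshold after adjustment (Gzmc with both treatments -0.86 ± 0.29, adjusted p = 0.328).

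Other members differed less in 66cl4 tumors, or in the other direction. Klrk1 had 22.5, 27.5, 17.6, 27.0 and 8.01 normalized counts untreated and 41.4, 35.4, 16.8, 43.9 and 61.2 with chitin, a difference of 0.29 ± 0.12 (adjusted p = 0.359). Eomes had 100 to 158 untreated, 82.2 to 111 with chitin and 74.8 to 119 with both (differences -0.18 ± 0.08 and -0.19 ± 0.08, adjusted p = 0.404 and 0.413). Ifng gave 1 read in all untreated tumors together, 9 in those given anti-PD-1, 17 with chitin and 13 with both, out of 32471322, 31997674, 51807774 and 47207966 reads on all genes. That is 0 to 6 reads per tumor, and its differences of 0.18, 0.24 and 0.20 had adjusted p of 0.911, 0.232 and 0.360. In all, 5 of 10 members had an unadjusted p under 0.05 with chitin, 4 of 10 with both treatments and 2 of 10 with anti-PD-1, where 11.4%, 10.6% and 5.36% of all genes did. When the chitin-containing 66cl4 tumors were set against the rest, 3 of 10 did (15.6% of all genes), namely Gzmb (-0.42 ± 0.14, adjusted p = 0.170), Prf1 (-0.43 ± 0.19, adjusted p = 0.292) and Ifng (0.13 ± 0.05, adjusted p = 0.254). All 9 T-cell markers had higher means with each treatment than without, and their summed level was 87.9 to 198 normalized counts untreated, 164 to 318 under anti-PD-1, 188 to 310 under chitin and 158 to 403 with both. Of 7 macrophage markers, 5 had a higher level with chitin at an unadjusted p under 0.05 (Adgre1 0.36 ± 0.12 and C1qc 0.36 ± 0.12, adjusted p = 0.247 and 0.264), 6 with both treatments (Adgre1 0.48 ± 0.12, adjusted p = 0.214) and 1 with anti-PD-1 (Adgre1 0.51 ± 0.12, adjusted p = 0.895). Their summed level was 25753 to 38081 normalized counts untreated, 32128 to 45523 with anti-PD-1, 37934 to 44342 with chitin and 39214 to 48301 with both. The part of these markers, and of the greater depth of chitin-containing groups, in the differences above was not tested.

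In 4T1 tumors, the pattern was led by Nkg7 and Klrk1 rather than by Gzma, Gzmb or Prf1. Nkg7 had 180, 150, 303, 200 and 199 normalized counts in tumors 1 to 5 given anti-PD-1, 27.5, 174, 59.6, 53.2 and 136 with chitin, and 45.0, 25.9, 78.4, 62.8 and 124 with chitin + anti-PD-1. Every tumor given anti-PD-1 alone was above every tumor given both, while 0.684% of all genes were lower without overlap in that comparison. The difference between chitin + anti-PD-1 and anti-PD-1 was -0.93 ± 0.23 (unadjusted p = 0.000791, adjusted p = 0.259), and that between anti-PD-1 and untreated tumors 0.68 ± 0.24 (adjusted p = 0.517), the latter being 1 of 10 members with an unadjusted p under 0.05 (8.89% of all genes). Klrk1 had 132, 104, 169, 129 and 160 normalized counts with anti-PD-1 and 27.0, 18.7, 44.2, 30.9 and 148 with both, where the fifth tumor alone reached the range of the anti-PD-1 group (difference -0.78 ± 0.21, adjusted p = 0.289). Ncr1 was at 46.3, 5.35, 11.5, 23.9 and 42.0 against 1.64, 1.44, 2.53, 5.63 and 15.2 (-0.47 ± 0.16, adjusted p = 0.407). Tbx21 (-0.39 ± 0.14, adjusted p = 0.411) and Fasl (-0.34 ± 0.13, adjusted p = 0.453) also had an unadjusted p under 0.05. These are 5 of 10 members, all lower, where 9.13% of all genes had such a p in either direction. With a shared error estimate over all 8 groups, Nkg7 and Klrk1 passed in this comparison (adjusted p = 0.00608 and 0.018), and with a weight for each tumor Nkg7, Klrk1, Ncr1 and Tbx21 did (adjusted p of 0.0021 for Ncr1 and 0.00221 for Klrk1).

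Gzma, Gzmb and Prf1 did not share this pattern. Gzmb had 262, 54.7, 18.2 and 351 normalized counts in untreated 4T1 tumors, 39.8, 337, 154, 58.0 and 57.0 under anti-PD-1, 110, 49.96, 148, 58.5 and 62.3 under chitin, and 353, 40.4, 77.1, 35.6 and 245 with both. Gzma ranged from 12.8 to 193, 48.7 to 343, 21.3 to 272 and 10.1 to 222 in the same order, and Prf1 from 12.8 to 277, 58.0 to 226, 38.4 to 94.9 and 23.1 to 173. All groups overlapped for these genes, and none had an unadjusted p under 0.05 in any 4T1 comparison. No member had one in chitin against untreated (2.77% of all genes), chitin + anti-PD-1 against untreated (2.56%) or chitin + anti-PD-1 against chitin (3.11%). When the chitin-containing 4T1 tumors were set against the rest, 4 of 10 members had one (7.28% of all genes), namely Nkg7 (-0.51 ± 0.17), Klrk1 (-0.49 ± 0.15), Ncr1 (-0.31 ± 0.12) and Tbx21 (-0.25 ± 0.10), with adjusted p of 0.580 to 0.633. All 10 members had the lower mean in the chitin-containing 4T1 groups, with a median difference of -0.24, while the median of all genes was 0.00.

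Markers of other cells also differed in level between these 4T1 groups, none of them past the threshold after adjustment. In chitin + anti-PD-1 against anti-PD-1, all 9 T-cell markers were lower with an unadjusted p under 0.05, with the smallest p for Cd3g (-1.08 ± 0.23) and Cd6 (-0.92 ± 0.20) and adjusted p of 0.259 to 0.353 over the list. The summed T-cell level was 403 to 1432 normalized counts untreated, 962 to 2488 under anti-PD-1, 311 to 1303 under chitin and 267 to 1159 with both. Tumors given anti-PD-1 alone also had higher means of the B-cell gene Cd79b (94.7 against 10.5 in untreated tumors), the lymphocyte homing receptor Ccr7 (118 against 31.4), the adipocyte genes Lep (43.2 against 0.455) and Cidec (513 against 36.4), and the milk protein genes Csn2 (399 against 10.2) and Csn3 (505 against 33.6). The summed adipocyte level was 46.8 to 7756 in these 5 tumors against 175 to 613 in untreated ones, and that of the milk genes 4.01 to 2825 against 4.73 to 216. In chitin + anti-PD-1 against anti-PD-1, 5 of 7 macrophage markers were lower at an unadjusted p under 0.05 (C1qb -1.03 ± 0.33 and C1qc -0.93 ± 0.32, adjusted p = 0.380 and 0.398), with summed levels of 5235 to 21265 normalized counts against 13182 to 33300. In the same comparison, 4 of 6 neutrophil markers were higher (Cxcr2 0.70 ± 0.18 and Mmp8 0.54 ± 0.17, adjusted p = 0.263 and 0.368), with summed levels of 863 to 8598 against 1085 to 1442. No marker of these lists was at 0 in all tumors of a group. The part of any of these cells in the values of Nkg7, Klrk1 and the other members was not tested. Of the other granzymes, 4 of 6 went the opposite way, being lower with anti-PD-1 than in untreated 4T1 tumors at an unadjusted p under 0.05. Gzmc was lower by -0.91 ± 0.34 (adjusted p = 0.517, limma). Gzmk was higher by 0.46 ± 0.15 (adjusted p = 0.517, limma). Its mean was 31.1 normalized counts with anti-PD-1, 7.56 untreated and 8.71 with both treatments.

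**Figure D3:**
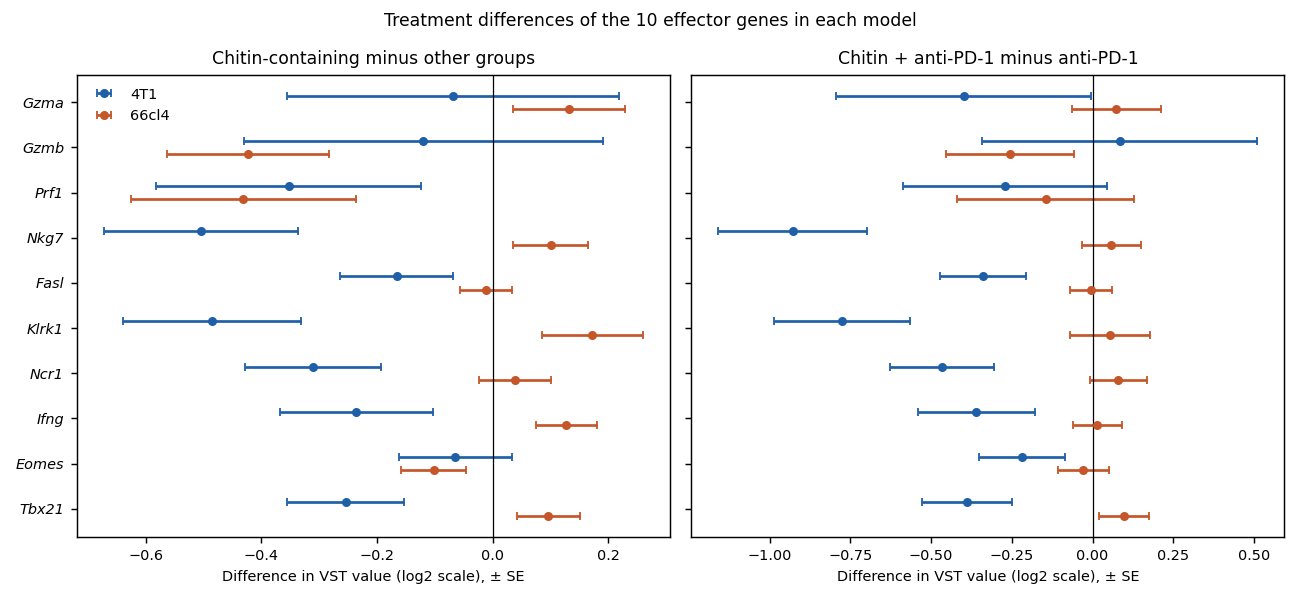
Difference in VST value (± SE) of the effector genes in 4T1 (blue) and 66cl4 (orange) tumors, with chitin-containing groups minus the rest (left) and chitin + anti-PD-1 minus anti-PD-1 (right). In 4T1 the points of Nkg7 and Klrk1 lie farthest to the left in the right panel (-0.93 and -0.78), and none of the differences passed an adjusted p of 0.05.

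Whether the models differed in their response was tested directly. For the presence of chitin, the change in 66cl4 minus that in 4T1 was 0.66 ± 0.18 for Klrk1 (adjusted p = 0.0845), 0.61 ± 0.18 for Nkg7 (0.110), 0.35 ± 0.12 for Tbx21 (0.159), 0.35 ± 0.13 for Ncr1 (0.242) and 0.36 ± 0.14 for Ifng (0.256). None of the 10 members passed, while 14 genes (0.0978%) did, and 5 of 10 members had an unadjusted p under 0.05 where 13.2% of all genes did. Of the T-cell markers, Cd6 passed (0.78 ± 0.16, adjusted p = 0.0409). Without 4T1 untreated tumor 5, neither Cd6 nor any other gene passed in this contrast. With 4T1 tumors left out singly, 2 members passed without tumor 2 of the anti-PD-1 group or tumor 2 of the chitin group (Nkg7 and Klrk1), and 3 without tumor 5 of the chitin + anti-PD-1 group (Nkg7, Klrk1 and Tbx21). For anti-PD-1 against untreated tumors, 3 of 10 members had an unadjusted p under 0.05 (7.27% of all genes), with Nkg7 at -0.66 ± 0.26, Eomes at -0.38 ± 0.16 and Fasl at -0.37 ± 0.15 (adjusted p = 0.652, 0.656 and 0.652).

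The members also differed in which tumors of a group were high together. Values were taken as deviations from the group mean. This removes mean differences between treatments, but not differences between tumors of a group in their response. The pairs below were chosen after the values had been seen. In 4T1 tumors, Gzma, Gzmb and Prf1 varied together (Pearson r of 0.67 to 0.86 over 3 pairs, n = 19), and Nkg7, Fasl, Klrk1 and Tbx21 did so among themselves (r of 0.76 to 0.94 over 6 pairs), but r between these sets was -0.06 to 0.41 over 12 pairs. Ifng varied with both sets, with r of 0.57 to 0.75 to the first (Gzmb 0.75, Prf1 0.72) and 0.52 to 0.58 to the second. In 66cl4 tumors, Prf1 was tied to Gzmb (r = 0.93, n = 20) and to all of Gzmc to Gzmg (r of 0.92 to 0.98), but Gzma was not part of that set (r = 0.14 with Gzmb and 0.22 with Prf1). The r among Nkg7, Fasl, Klrk1 and Tbx21 was -0.03 to 0.64 in 66cl4. Fasl had only 2 to 15 reads per tumor there and Tbx21 3 to 25. The part of counting error in these lower r was not tested. All genes of a tumor share its library and its cell composition.

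Each member was also set against the T-cell gene Cd3e and against Gzmc. As these references were chosen after the values had been seen, the coefficients are a description and no p is given. In 4T1 tumors, the r with Cd3e was 0.92 for Klrk1, Tbx21 and Nkg7 (Spearman's rho 0.89, 0.90 and 0.90), 0.82 for Fasl (rho 0.82) and 0.77 for Ncr1 (rho 0.75), but 0.24 for Prf1, 0.09 for Gzmb and -0.04 for Gzma. With Gzmc it was 0.76 for Gzmb (rho 0.71), 0.65 for Prf1 (rho 0.55) and 0.60 for Gzma (rho 0.49). Gzmc gave the highest r of its cluster for these genes in 4T1. Over Gzmc to Gzmg, r there was -0.17 to 0.76 for Gzmb, -0.20 to 0.65 for Prf1 and -0.05 to 0.60 for Gzma. In 66cl4 tumors, the r with Cd3e was -0.34 to 0.41 over the 10 members, whereas with Gzmc it was 0.92 for Prf1 (rho 0.83), 0.84 for Gzmb (rho 0.81) and -0.53 for Fasl (rho -0.63, at 2 to 15 reads). Without the 2 tumors farthest from the median on the x axis, r with Cd3e in 4T1 was 0.88, 0.86, 0.90, 0.76 and 0.75 for the first 5 genes in the order given. With Gzmc it was then 0.65 for Gzmb, 0.49 for Prf1 and 0.46 for Gzma in 4T1, and 0.85 for Prf1, 0.72 for Gzmb and -0.32 for Fasl in 66cl4. The r between Prf1 and Gzmb was 0.86 in 4T1 and 0.93 in 66cl4 (rho 0.83 and 0.90), and 0.83 and 0.89 without these tumors.

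**Figure D4:**
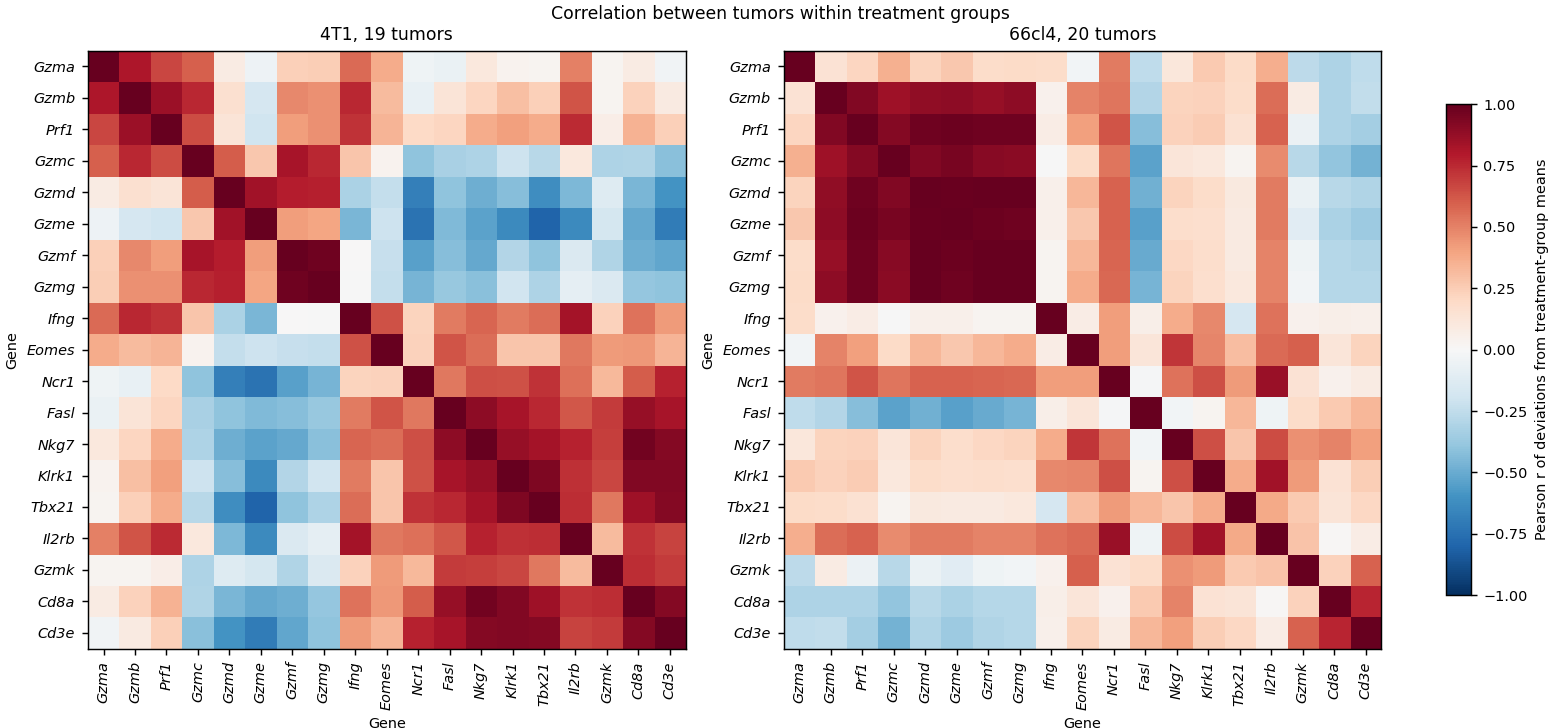
Pearson r between genes over tumors of each model, after subtraction of treatment-group means (red positive, blue negative). In 4T1, Gzma, Gzmb and Prf1 form a block apart from Nkg7, Klrk1, Tbx21, Cd8a and Cd3e, and in 66cl4 Gzmb, Prf1 and Gzmc to Gzmg form a single block with r of 0.84 or more.

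**Figure D5:**
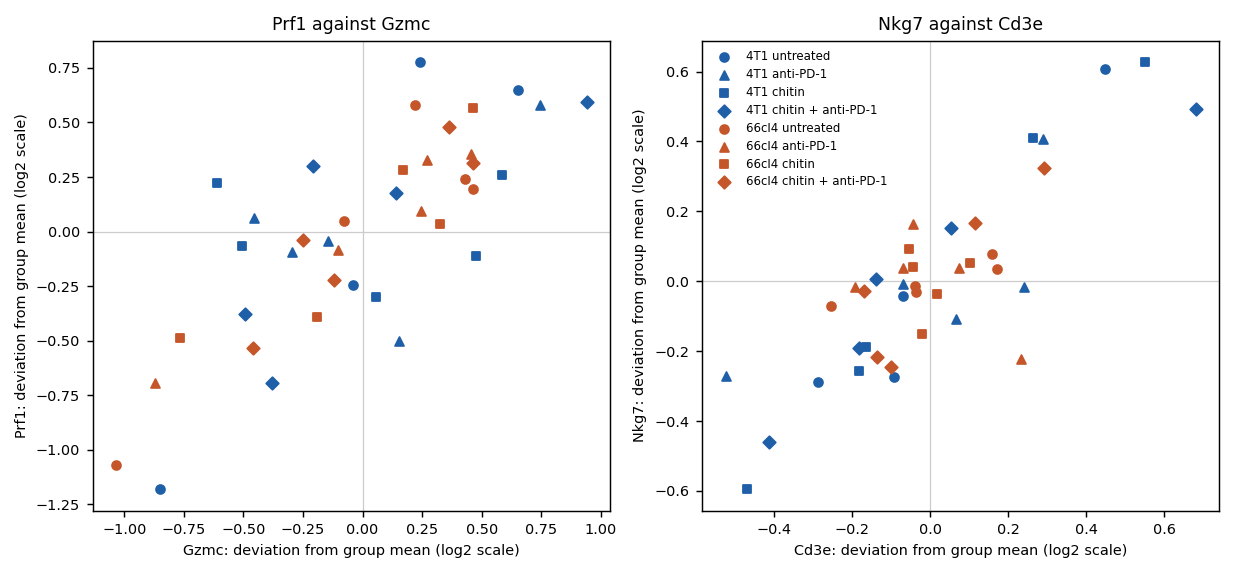
Deviation of each tumor from its group mean (log2 scale) for Prf1 against Gzmc (left) and Nkg7 against Cd3e (right), colored by model and shaped by treatment. Prf1 rises with Gzmc in 66cl4 (r = 0.92), and Nkg7 rises with Cd3e in 4T1 (r = 0.92), while in 66cl4 r is 0.41.

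The genes most like the mean of the members were found in the same way, as a description. In 4T1 these were Il2rb (r = 0.93), Ube2l6 (0.91), Cd96 (0.91), Ifi44l (0.90) and H2-Aa (0.89), over all 10 members. In 66cl4 the mean was taken over the 8 members with at least 10 reads on average, and Il2rb came first again (0.89), followed by Tbx18 (0.76), Rexo4 (0.75), 1700123M08Rik (0.74, with 3 to 19 reads) and Trim21 (0.73). All of these are the highest r picked from all listed genes. How high r would reach among unrelated genes was not tested. Il2rb encodes a receptor chain for interleukins 2 and 15, the growth factors of cytotoxic lymphocytes.

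As Prf1, Gzmb and the neighboring granzymes varied together in 66cl4 tumors, the sequence before their start is shown for Prf1, Gzmb and Gzme, the latter being the gene with the highest r to Prf1. The windows are taken from RefSeq (GRCm38.p6) up to the base before the annotated gene, 5′ to 3′ on the strand of the gene. Capitals mark the RUNX motif ACCACA or its reverse TGTGGT, the core bound by RUNX factors such as Runx3 of cytotoxic T cells. They cover chr10:61297586-61297750 on the plus strand for Prf1, and chr14:56262335-56262584 and chr14:56120626-56120875 on the minus strand for Gzmb and Gzme.
Prf1: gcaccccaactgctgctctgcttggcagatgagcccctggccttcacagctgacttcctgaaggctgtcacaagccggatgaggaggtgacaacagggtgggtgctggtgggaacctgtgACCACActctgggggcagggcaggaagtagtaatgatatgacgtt
Gzmb: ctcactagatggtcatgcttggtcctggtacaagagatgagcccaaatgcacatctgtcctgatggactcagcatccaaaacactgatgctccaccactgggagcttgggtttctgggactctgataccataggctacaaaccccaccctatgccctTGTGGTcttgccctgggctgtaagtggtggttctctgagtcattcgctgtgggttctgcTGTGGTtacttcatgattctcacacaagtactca
Gzme: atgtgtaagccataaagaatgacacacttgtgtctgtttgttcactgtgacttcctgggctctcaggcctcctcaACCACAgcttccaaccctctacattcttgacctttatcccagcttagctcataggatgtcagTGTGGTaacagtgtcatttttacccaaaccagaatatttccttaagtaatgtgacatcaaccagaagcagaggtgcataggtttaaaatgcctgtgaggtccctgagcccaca

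In windows of 250 bases before to 50 after each start, searched on both strands, the RUNX motif was present in 6 of 10 members (Gzma, Gzmb, Prf1, Nkg7, Klrk1 and Ncr1) and in 16.8% of all 32851 windows. Gzmb, Ncr1 and each of Gzmc to Gzmg held 2 matches, as did 1.81% of all windows with 2 or more. The T-box motif TCACACC was found in Nkg7 alone (3.98% of all windows), the STAT motif TTCNNNGAA in 3 members (8.30%), the AP-1 motif TGANTCA in 2 (7.81%) and the NFAT motif GGAAAA in 2 (23.4%). Overlaps between matches of different motifs were not resolved, and a match is a run of letters and not a bound site. A part of RUNX factors in the shared variation of Prf1, Gzmb and their neighbors was not tested. Runx3 itself had means of 220 to 343 normalized counts in the 4T1 groups and 112 to 148 in the 66cl4 groups.

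Neighboring granzymes are similar in sequence. The longest run shared by Gzmb with another granzyme transcript was 49 bases (with Gzmc), below the read length of 150 bases, and within Gzmc to Gzmg it was 47 to 101 bases. How reads that align to several genes were handled is not given in the sources used here, so that the values of Gzmd, Gzme, Gzmf and Gzmg relative to each other are uncertain.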

How the data were processed

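Primary tumors (39, of 8 model-by-treatment groups) were analysed by RNA sequencing. The authors prepared stranded TruSeq libraries, aligned reads to mm10 with HISAT2, counted them with summarizeOverlaps (intersection non-empty, with strand, unpaired reads), kept genes with more than 10 counts in at least 10% of cases and applied the DESeq2 variance stabilizing transformation. The deposited values are therefore log2-like. Versions and the annotation for counting are not given in the sources used here. The transformation was inverted to reads and size factors (100% whole reads within 0.001, depth of 5105898 to 14800352 reads per tumor). SDs between tumors served as the measure of precision, and counting error adds to it for genes of few reads.

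Tests on the VST values used limma (version 3.58.1, R version 4.3.3, mean-variance trend), with the 4 groups of a model in the fit for treatments and all 8 for comparisons of models, and p-values were adjusted (Benjamini-Hochberg) over 14318 genes at a threshold of 0.05. The procedure was run on simulated data in which only genes of higher mean level were changed. That run therefore does not cover members of few reads. The members and all gene lists were chosen with earlier results of these data known. Besides the members, the text names from each other list up to 4 genes of largest difference past the threshold or otherwise the 2 of smallest p, and the 5 genes most like the members. Any other gene (Gzme in the text, Epcam and Krt8 as checks, Cd3e and Gzmc as references, Runx3) was chosen after the values were seen. Alternatives were omission of the 25% least expressed genes, no trend, other groups in the fit, median centring, quantile normalization, weights for each tumor, a replicate block, limma-voom on the reads with trimmed-mean (TMM) scaling, and leaving out each tumor. Correlations over tumors were computed on deviations from group means (numpy 2.4.6). Exon lengths are from GENCODE and positions from RefSeq, on GRCm38. Untreated 4T1 tumor 3 and the protein and cell data were not analysed here. Values of some genes of the lists are not reported here.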

Additional observations from a re-analysis of the deposited data

Results flagged for a closer look

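In groups of 4 or 5 tumors, 3 of 80 sets of values had a tumor farther from the others than Dixon's 95% critical value allows, where about 1 in 20 would by chance. Ncr1 in tumor 2 of 66cl4 with anti-PD-1 had a VST value of 6.98 (30 reads), against 6.92 to 6.94 in the other 4, a group of unusually even values. Ifng in tumor 3 of untreated 66cl4 had 6.22, which is 1 read against 0 in the others. Tbx21 in tumor 5 of 66cl4 with chitin had 6.79 (25 reads), against 6.56 to 6.62.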

How the results depend on the processing

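With limma on these VST values, called members kept their direction in every alternative run. Tumor weights called members in 4 comparisons: 1 for 4T1 anti-PD-1 against untreated, 4 for 4T1 chitin + anti-PD-1 against anti-PD-1, 2 for the chitin-containing 4T1 groups against the others and 4 for the difference of that contrast between models. With all 8 groups in 1 fit, which pools the spread of both models, 2 were called for 4T1 chitin + anti-PD-1 against anti-PD-1. The filter on low means tested 3 of 10 members and called 1 between untreated models and 2 over the treatments, by its construction. Leaving out tumors gave 0 to 3 called members for the difference between models in the chitin contrast. The labels give same-numbered tumors of different groups nothing in common but the number. Mean r between same-numbered tumors was 0.0101 in 4T1 and 0.0618 in 66cl4, against -0.000571 and -0.0145 between other tumors. In 4T1, 4 of 19 tumors correlated best with their own number, and in 66cl4 10 of 20. Whether the number stands for a shared batch was not tested. The replicate block changed no call of a member, moved the chitin contrast between models from 14 to 104 genes over all genes, and called 16, 7 and 2 genes in 66cl4 (chitin-containing groups, both treatments and chitin against untreated), and 1 each in 4T1 (both treatments against untreated and against anti-PD-1).

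Over all genes, counts went from 0 with tumor weights to 960 and 2127 (4T1 anti-PD-1 against untreated, and both treatments against anti-PD-1), 297 and 185 (chitin-containing groups in 4T1 and 66cl4), 2 (66cl4, both treatments against anti-PD-1) and 331 (anti-PD-1 between models), and from 14 to 1004 for chitin between models. With both models in the fit they were 60, 294, 58, 5 and 3 in 4T1 and 1 and 1 in 66cl4. Quantile normalization gave 39 and 2, and the filter 8 and 6. Without 4T1 anti-PD-1 tumor 2, 80, 202, 86 and 677 genes were called (anti-PD-1 against untreated, both against anti-PD-1, and the differences between models for anti-PD-1 and chitin), and without 66cl4 untreated tumor 3, 269 for the chitin-containing groups and 25 for chitin. The chitin contrast between models fell to 0 genes without 4T1 untreated tumor 5, and reached 183 and 282 without tumor 2 of 4T1 chitin and tumor 5 of 4T1 chitin + anti-PD-1. The 66cl4 chitin-containing groups gave 29 and 21 genes without tumor 2 of anti-PD-1 and tumor 3 of chitin. The cause was not tested. Genes of few reads (Ifng, Fasl and Tbx21 in 66cl4, Ncr1 in 4T1) are limited by depth.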
